A study of Homo sapiens with 8 samples.

Results

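The effect of GPX1 depletion common to 2 breast cancer cell lines was measured over all 8 RNA-seq libraries of the study, 4 titled siGpx1 and 4 titled Control, with cell line as an additive term. HS578T and MDA-MB-231 are established human lines of triple-negative breast cancer, a class that lacks the hormone receptors and the amplified ERBB2 of other breast cancers, and each contributed 2 Control and 2 siGpx1 libraries. The title of the study ties GPX1 to inhibition of metastasis of this cancer, so the comparison asks which transcripts changed in both lines when GPX1 was lowered. The titles name an siRNA against GPX1 while the genotype tag of the same samples names a knockout (Gpx1-/-). The labels give neither the sequence nor the number of siRNAs, nor the control reagent or the time after transfection. The cell line tag is HS578T or MDA-MB-231 for all libraries of a line, whereas the source and tissue labels count upward from sample to sample within a line, and the tag was used. Nothing in the labels says that the 2 libraries of a group came from separate cultures, so the p-values reflect the spread of these libraries alone, which may be no more than technical.

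GPX1 is a glutathione peroxidase, a selenium-containing enzyme that reduces hydrogen peroxide and soluble lipid peroxides to water and alcohols in the cytosol and mitochondria, using glutathione as the electron donor. Hydrogen peroxide is both a damaging oxidant and a signal that acts on phosphatases and kinases. Glutathione reductase and the pentose phosphate pathway supply the reducing power, and peroxiredoxins, catalase and thioredoxin reductase act on overlapping substrates.

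Each library held 12905802 to 14216366 rounded counts and detected 15573 to 15805 of 23686 gene symbols, and 14249 genes were tested. The 10 most abundant genes took 8.77 to 10.6% of the counts in HS578T and 3.34 to 3.70% in MDA-MB-231. FN1 alone, which encodes fibronectin, took 3.54 to 3.62% in the HS578T controls and 4.39 to 4.87% in the HS578T siGpx1 libraries. The HS578T siGpx1 pair differed most from each other: the chi-square statistic between its libraries averaged 4.05 over genes, and that of the other 3 pairs 1.35 to 1.96. Both lines carried mesenchymal transcripts, with VIM at 1.68e+03 to 6.10e+03 CPM (CPM, counts scaled to a common library total after TMM normalization, is the unit of all levels here). Other mesenchymal markers were unequal, and the 11 tested summed to 49500 to 67500 CPM in HS578T and 3820 to 4090 in MDA-MB-231. SPARC had 47179 to 54988 counts in HS578T and 13 to 19 in MDA-MB-231, where TWIST1 and THY1 had 0. AXL was high in both lines, with 5153 to 14690 counts in HS578T and 12097 to 19922 in MDA-MB-231. EPCAM, a defining epithelial marker, had 0 to 2 counts in the HS578T libraries and 304 to 366 in MDA-MB-231. CDH1, the epithelial cadherin, had 0 to 3 and 10 to 28, although both lines are labelled epithelial. ESR1, the estrogen receptor, had 0 to 3 counts per library. Several leukocyte markers were near 0, with PTPRC at 0 to 5 counts and CD3E, MS4A1 and FCGR3A at 0 in all 8 libraries. Not all of that list was absent, as CD14 had 56 to 112 counts per library and CD68 had 561 to 1704.

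GPX1 was low in every library titled siGpx1. The HS578T controls held 84.0 and 84.2 CPM and the HS578T siGpx1 libraries 3.57 and 3.42. The MDA-MB-231 controls held 194 and 209 CPM and the siGpx1 libraries 7.28 and 6.78. The groups lay far apart in both lines, and each of the 8 libraries lay on the side its title gives. The common log2 change was -4.75 ± 0.07 (SE), a 26.9-fold fall with an adjusted p of 3.37e-11. This and every other adjusted p given for a gene, unless another tool is named, is from the quasi-likelihood test of edgeR, adjusted over all tested genes by the Benjamini-Hochberg method. The fall in MDA-MB-231 differed from that in HS578T by -0.25 (95% interval -0.71 to 0.21, adjusted p = 0.41).

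Beyond GPX1 the common effect was broad and mostly small. Of the 14249 genes, 6912 (48.5%) passed at an adjusted p under 0.05, of which 3665 rose (25.7% of those tested) and 3247 fell (22.8%). At an unadjusted p under 0.05 there were 7824. The median size was 0.36 for the rises and -0.45 for the falls on the log2 scale, and 76.9% of the rises and 63.5% of the falls were under 1.5-fold. When the test asked for a change beyond 1.5-fold, 262 rises and 582 falls were left. The median over all tested genes was 0.0257, so a value near that is no change relative to the other genes.

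The falls were the larger changes. Over 2-fold, 455 genes fell (3.19% of those tested) and 250 rose (1.75%), and over 4-fold 40 fell and 26 rose. The imbalance depended on level. Among genes under 1 CPM on average, 7.10% rose and 5.92% fell over 2-fold, whereas among those of 20 to 100 CPM 0.921% rose and 2.78% fell, and at 100 CPM or more 0.965% rose and 2.64% fell. In genes with at least 1 CPM in some library of each line, a subset chosen after the data were seen, 132 rose and 344 fell over 2-fold.

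**Figure D1:**
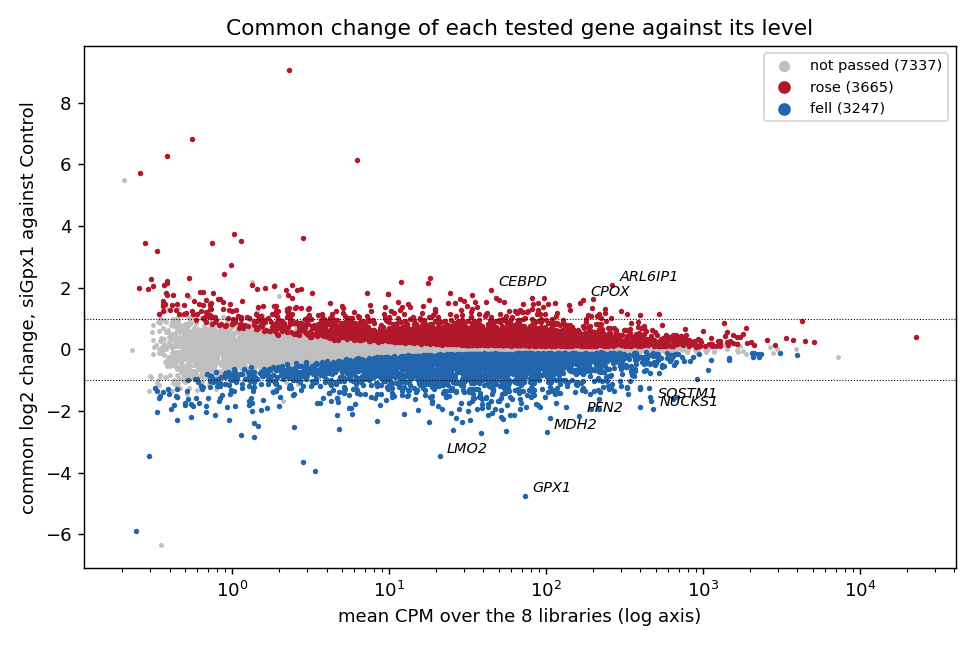
Common log2 change (siGpx1 against Control, vertical axis) of each of the 14249 tested genes against its mean CPM over the 8 libraries (horizontal log axis), with red for the 3665 that rose, blue for the 3247 that fell and grey for those that did not pass; the dotted lines mark 2-fold. Above 20 CPM the points below the lower line are more numerous than those above the upper line, and the points beyond 5 in size other than that of C1orf151-NBL1 lie under 5 CPM.

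Most of the calls had groups apart in the same direction in both lines. In 3150 of the 3665 rises (85.9%), both siGpx1 libraries lay above both controls in each line, and in 2797 of the 3247 falls (86.1%) both lay below. Over all tested genes the same separation was found upward for 25.1% and downward for 21.7%. The calls were made on the same libraries, so this separation is no independent check of them. Tested in each line separately, 2127 genes passed upward in both lines and 2032 passed downward in both. In neither line did 189 of the common calls pass. Over 2-fold in each line separately there were 103 rises and 268 falls. The size of the change differed between the lines for 2428 tested genes (17.0%), among them 1422 of the 6912 called (20.6%), and 310 called genes had opposite signs in the lines. A common change of that kind is an average of unequal responses, so the values in each line are given beside it.

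**Figure D2:**
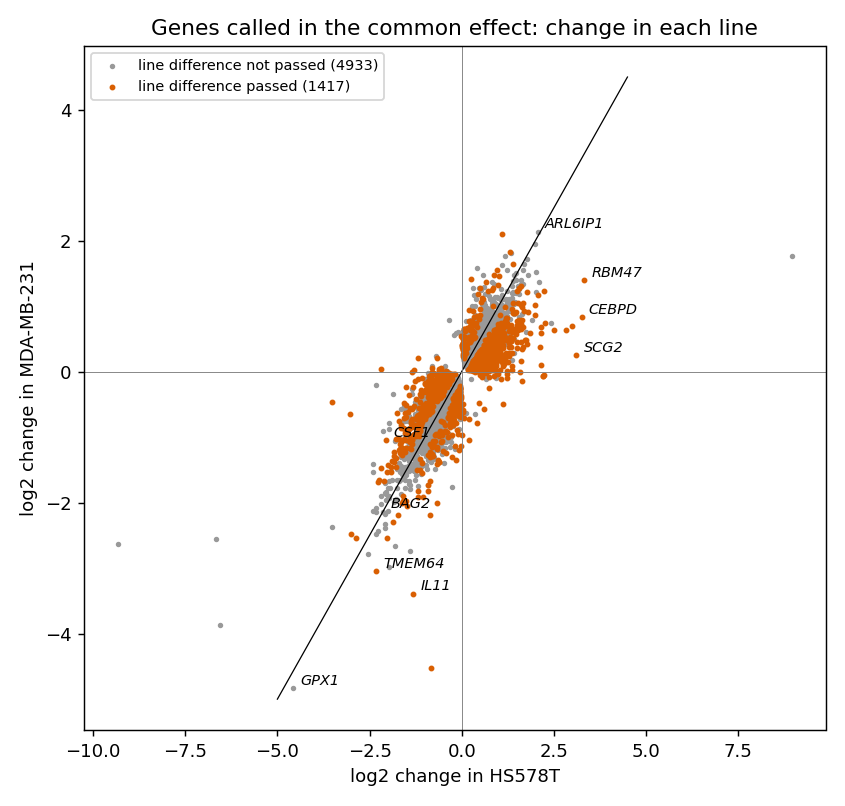
Log2 change in MDA-MB-231 (vertical) against that in HS578T (horizontal) for the 6350 genes called in the common effect that had at least 1 CPM in some library of each line, with the line of equal change drawn and the axes on different scales. Orange points are the 1417 whose change differed between the lines at an adjusted p under 0.05 and grey points the other 4933; ARL6IP1, BAG2 and GPX1 lie near the line of equal change, while CEBPD, SCG2 and RBM47 lie to its right and IL11 below it.

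The rises with the smallest p under the naming rule were those of ARL6IP1, CPOX, CDC42SE2, EFR3A and CAV2. ARL6IP1, a membrane protein that shapes tubules of the endoplasmic reticulum, went from 69.2 and 67.3 CPM to 275 and 295 in HS578T and from 129 and 133 to 579 and 570 in MDA-MB-231. Its siGpx1 libraries lay well above the controls in both lines, and the rise was alike in size, at 2.06 and 2.13. The common change was 2.10 ± 0.04 (adjusted p = 4.04e-10), with a difference between the lines of 0.07 (95% interval -0.10 to 0.25). CPOX, the mitochondrial coproporphyrinogen oxidase of heme synthesis, went from 68.2 and 63.2 CPM to 206 and 213 in HS578T and from 108 and 105 to 308 and 314 in MDA-MB-231 (1.61 ± 0.04, adjusted p = 2.27e-09). CDC42SE2, a small effector of the GTPase CDC42, went from 14.4 and 14.8 CPM to 50.2 and 49.6 and from 16.6 in both controls to 54.3 and 55.7 (1.75 ± 0.05). The groups of both genes were apart in each line, which the naming rule required of all the rises named here. Neither rise differed detectably between the lines (adjusted p = 0.20 and 0.87).

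EFR3A, a scaffold that holds a lipid kinase at the plasma membrane, rose by 1.49 ± 0.04, with controls at 80.3 to 89.6 CPM and siGpx1 libraries at 223 to 253 over both lines. CAV2, caveolin 2 of the caveolar coat, rose by 1.44 ± 0.04, from 51.8 and 48.0 CPM to 141 and 136 in HS578T and from 98.4 and 104 to 267 and 269 in MDA-MB-231. CLDN12, a claudin, rose by 1.66 ± 0.06, from 11.1 and 11.4 CPM to 37.3 and 34.9 and from 38 and 32.7 to 114 and 108. In none of these 3 genes did a siGpx1 library reach down to a control of its line, which the naming rule required. Their differences between the lines were within -0.38 and 0.30 by the outer bounds of the 95% intervals.

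Other large rises were unequal in the lines. CEBPD, a C/EBP factor that drives acute-phase genes, went from 11.1 and 9.88 CPM to 92.9 and 107 in HS578T and from 23.9 and 25.9 to 41.3 and 47.3 in MDA-MB-231. It rose in both lines, but by 3.25 in HS578T and 0.83 in MDA-MB-231, so the common 1.93 ± 0.38 describes neither (adjusted p = 0.00154, line difference adjusted p = 3.59e-08). CCDC71L (2.50 and 0.64), SLC12A8, a solute carrier (1.99 and 0.87), SPOPL, a substrate adaptor of a ubiquitin ligase (2.06 and 1.18), MUC1, a membrane mucin (2.24 and 1.23), and ADAMTS14, a procollagen protease (1.98 and 1.02), likewise rose more in HS578T. RBM47, an RNA-binding protein, rose by 3.33 in HS578T from under 1 CPM and by 1.40 in MDA-MB-231, from 36.0 and 39.9 CPM to 101 and 98.5, and the common 1.52 ± 0.16 lies near the latter because that line holds nearly all of the counts.

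VSNL1, LAMA4 and SMN2 complete the 14 largest rises among genes with a mean of at least 5 CPM and groups apart in the same direction in both lines. VSNL1, a neuronal calcium sensor, rose by 1.83 ± 0.16 on HS578T values of 5.87 and 6.12 against 22.5 and 22.4 CPM, and it stayed under 1 CPM in all MDA-MB-231 libraries. LAMA4, a laminin alpha chain of basement membranes, rose by 1.61 ± 0.10, from 16.8 and 15.1 CPM to 51.4 and 50.5 and from 1.19 and 1.81 to 4.25 and 3.36. SMN2, which encodes a protein of spliceosome assembly, rose by 1.64 ± 0.24, but it is nearly identical to SMN1 and the sharing of reads between the copies makes its value uncertain.

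**Figure D3:**
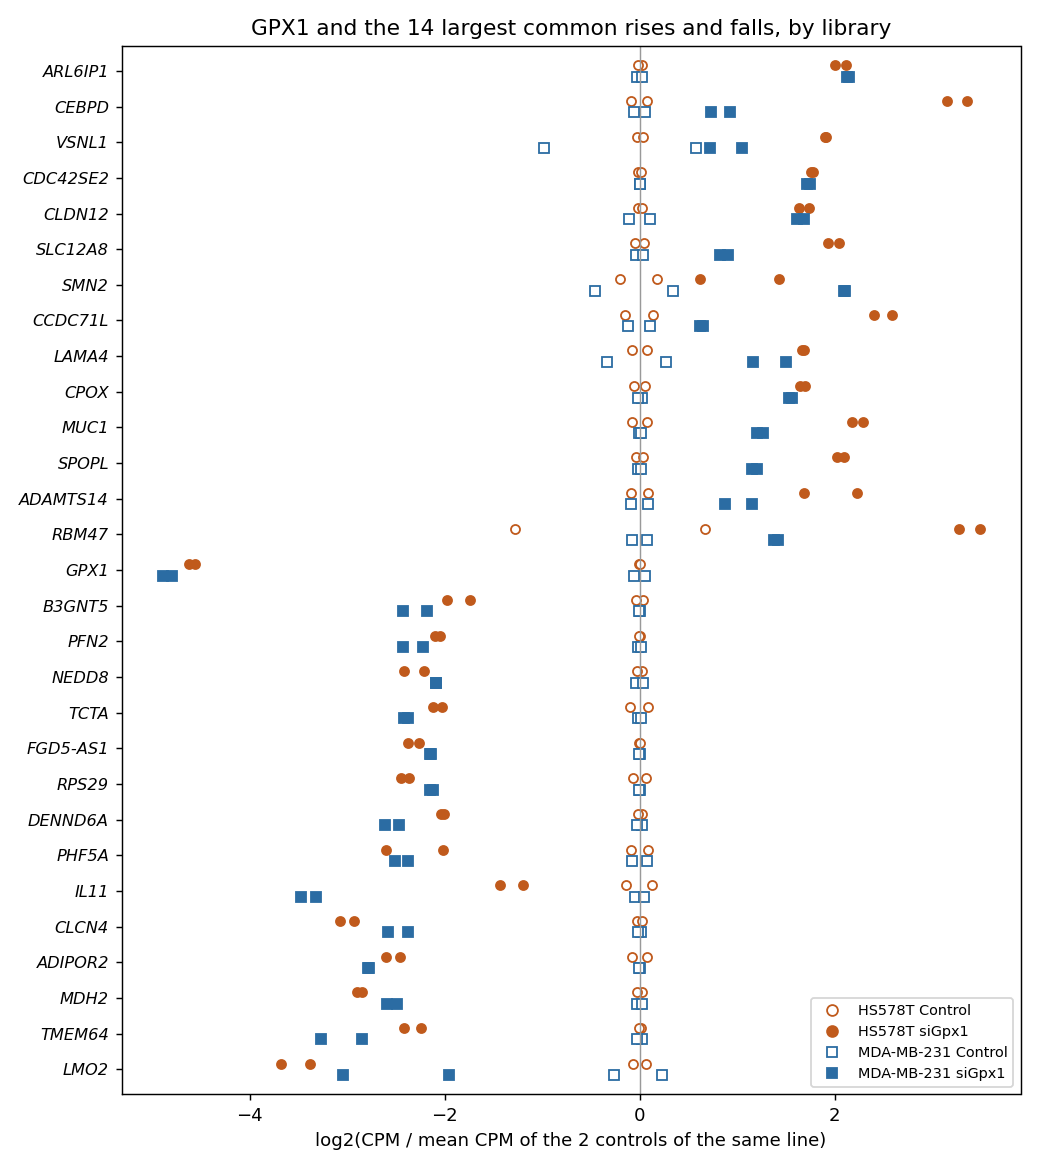
CPM of GPX1 and of the 14 largest common rises and falls in each library, as log2 of the ratio to the mean of the 2 controls of the same line (horizontal axis); circles are HS578T, squares MDA-MB-231, open symbols Control and filled symbols siGpx1. The filled circles and squares of ARL6IP1, CDC42SE2, CLDN12 and CPOX sit close together on the right, whereas those of CEBPD, CCDC71L and IL11 are far apart between the lines.

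Among genes with a mean of at least 5 CPM and groups apart in both lines, LMO2 had the next fall in size after GPX1. This LIM-domain adaptor of blood stem cell transcription factors went from 72.6 and 79.8 CPM to 7.31 and 5.94 in HS578T and from 0.922 and 1.30 to 0.135 and 0.286 in MDA-MB-231. Both lines moved down, though MDA-MB-231 held little of the transcript, and the common change of -3.47 ± 0.13 rests on HS578T. With both lines weighted equally it was -2.945.

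MDH2, ADIPOR2 and NEDD8 fell strongly in both lines. MDH2, the malate dehydrogenase of the mitochondrial citric acid cycle, went from 167 and 161 CPM to 21.9 and 22.7 in HS578T and from 183 and 190 to 33.3 and 31.0 in MDA-MB-231 (-2.69 ± 0.07, adjusted p = 1.93e-09). The siGpx1 libraries held a small part of the control level in each line, with a line difference of 0.34 (adjusted p = 0.00997). ADIPOR2, an adiponectin receptor, went from 82.8 and 74.2 CPM to 14.3 and 12.9 and from 115 and 114 to 16.8 and 16.6 (-2.66 ± 0.07). NEDD8, the ubiquitin-like protein that activates cullin ligases, went from 71.5 and 69.0 CPM to 15.1 and 13.2 and from 97.6 and 103 to 23.5 and 23.6 (-2.19 ± 0.06). The groups of these genes did not overlap in either line, which the rule that named them required. NEDD8 has an annotated read-through transcript with a neighbour, and the sharing of reads with it was not examined.

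PFN2, NUCKS1, TOMM20 and BAG2 were among the falls with the smallest p or the largest falls. PFN2, a profilin that binds actin, went from 490 and 484 CPM to 114 and 118 in HS578T and from 38.5 and 39.5 to 7.28 and 8.35 in MDA-MB-231, so the same fall (-2.15 ± 0.06) was seen at very different levels. NUCKS1, a chromatin protein, went from 466 and 438 CPM to 111 and 116 and from 1.07e+03 and 1.06e+03 to 284 and 285 (-1.95 ± 0.04, adjusted p = 4.04e-10). TOMM20, a receptor of mitochondrial protein import, went from 206 and 209 CPM to 76.7 and 75.3 and from 356 and 341 to 129 and 127. Its fall of -1.45 ± 0.04 was equal in the lines to within -0.15 and 0.15 (95% interval of the difference). BAG2, a cochaperone of HSP70, fell by 2.14 ± 0.05 in the common effect, from 73.7 and 75.9 CPM to 15.9 and 18.1 and from 130 in both controls to 30.5 and 28.4.

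The other large falls were spread over several functions, and the naming rule required their groups to be apart in both lines. CLCN4, a chloride/proton exchanger of endosomes, changed by -2.63 ± 0.10, PHF5A, a subunit of the SF3b splicing complex, by -2.36 ± 0.11, DENND6A, an exchange factor of Rab GTPases, by -2.31 ± 0.10, and B3GNT5, a glycosyltransferase of glycolipid synthesis, by -2.14 ± 0.09. TMEM64 changed by -2.71 ± 0.13 and TCTA by -2.22 ± 0.08. The long noncoding RNA FGD5-AS1 changed by -2.22 ± 0.05, from 151 and 152 CPM to 31.5 and 29.2 and from 200 and 199 to 45.4 and 45.0, with strand use of the counting not stated, so reads of an overlapping gene cannot be told apart. IL11, which signals through gp130 as IL-6 does, fell in both lines but much more in MDA-MB-231, from 65.7 and 70.3 CPM to 6.81 and 6.14, than in HS578T, from 27.5 and 33.3 to 13.3 and 11.3 (-2.36 ± 0.32 in common, line difference of -2.08).

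Genes that fell shared a short sequence in their 3′ untranslated regions (UTRs) more often than other genes, and the same letters stand in GPX1. Each of 15937 sequences of 7 bases found in at least 100 genes was ranked over 13096 tested genes with an annotated 3′ UTR. The rank followed the difference in mean common change between genes with and without it in the sense strand, in standard errors across genes. The match was known from earlier results of these data, so the ranks are a description. GGGCATC ranked 1 and GGCATCA ranked 2 from the low end, overlapping in 6 letters. The 1039 genes with GGGCATC had a mean change of -0.35 against 0.02 in genes without it, 18.3 standard errors apart across genes, which are not independent replicates. The 1188 genes with GGCATCA had -0.30 against 0.02. Of the 8 lowest sequences, 6 contain GGCATC. At the high end the first was ACTTCGA, in 214 genes, 6.38 standard errors above.

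Joined, the 2 sequences make GGGCATCA, which is found in 5 of 6 annotated GPX1 transcripts, within the coding part of an exon. It is shown first, followed by 1 place each in the 3′ UTRs of some of the genes whose falls are given above, to let the shared letters be compared. CLCN4 has another place, and that and the places of some other genes, TMEM64 and RPS29 among them, are not shown. Sequences are 30 bases, 5′ to 3′ in the sense of the transcript, from GENCODE release 29 on build GRCh38 (the deposited values use hg19), and capitals mark the match.

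GPX1, coding exon, chr3:49358027-49358056, minus strand: ggcttcccgtgcaaccagtttGGGCATCAg

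PFN2, 3′ UTR, chr3:149965900-149965929, minus strand: catgccaagttGGGCATCActttgtcttag

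TCTA, 3′ UTR, chr3:49414876-49414905, plus strand: agggtctccaaGGGCATCActgggtctgct

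MDH2, 3′ UTR, chr7:76066438-76066467, plus strand: taatttatgaaGGCATCAtgtcactgcaaa

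NEDD8, 3′ UTR, chr14:24217066-24217095, minus strand: gctcataatgaGGCATCAtatatcctctca

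LMO2, 3′ UTR, chr11:33859325-33859354, minus strand: cccgagtccccGGGCATCtttggggaggtg

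CLCN4, 3′ UTR, chrX:10233974-10234003, plus strand: aaaagacaaagGGGCATCggcatgtcagcg

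IL11, 3′ UTR, chr19:55365847-55365876, minus strand: tgaggcctgggGGGCATCtgtgccttattt

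NUCKS1, 3′ UTR, chr1:205713769-205713798, minus strand: ggctgagaccgGGGCATCtcttttcttcat

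TOMM20, 3′ UTR, chr1:235111249-235111278, minus strand: tgggttctgttGGGCATCtttaaatccacc

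PFN2 and TCTA carry all 8 letters and the other 7 UTR places shown carry 7 of them. Of the 14 largest falls, 10 had one of the 7-base sequences in an annotated 3′ UTR, ADIPOR2, DENND6A and B3GNT5 had neither, and the noncoding FGD5-AS1 was not searched. The 10 include RPS29, whose match lies far from the stop codon in the longest of its annotated UTRs and may not be part of the transcript these cells make. None of the 14 largest rises had either sequence. Of all searched genes other than GPX1, 13.9% (1824 of 13095) had one. At that share few matches would be found among 14 genes, so their lack in the rises says little. The sequences were picked because genes with them had the lowest changes, so the counts among the largest falls and rises were partly set in advance.

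The common change was graded by the length of the match. The 315 genes with all 8 letters had a median of -0.37, and 54.9% of them fell while 11.1% rose. The 636 genes with GGGCATC alone had a median of -0.22, the 785 with GGCATCA alone -0.16 and the 88 with both at separate places -0.165. The 1389 genes with only the 6-letter core GGCATC had a median of -0.07 (34.1% fell and 21.6% rose), and the 9882 with none of these had 0.06 (17.7% fell and 29.7% rose). The medians ran in the same order of match length within each line. They were -0.40 for 8 letters, -0.06 for the core and 0.09 for none in HS578T, and -0.37, -0.06 and 0.03 in the other line.

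**Figure D4:**
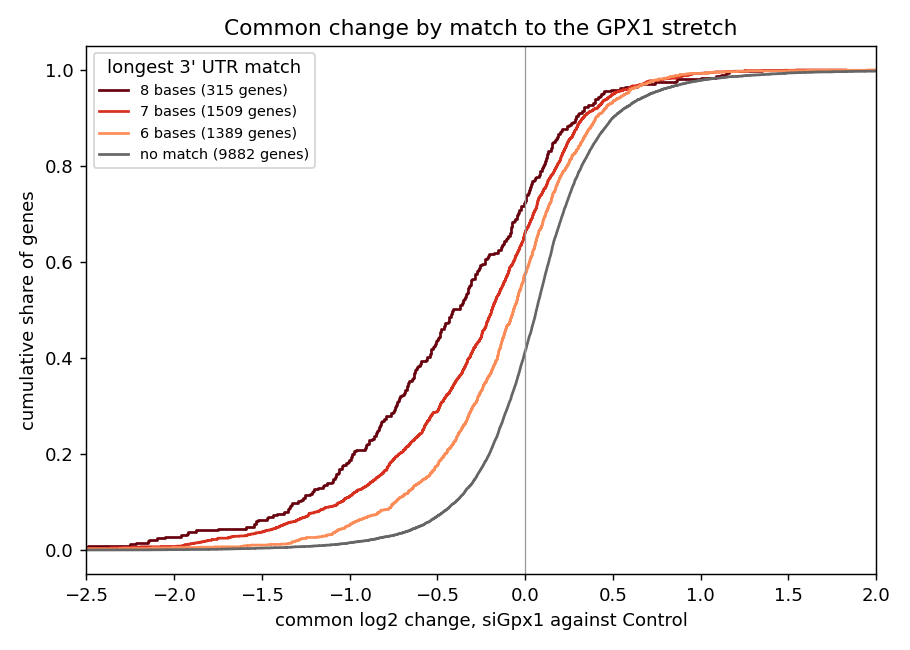
Cumulative share of genes (vertical axis) against the common log2 change (horizontal axis, cut at -2.5 and 2) by the longest match of the 3′ UTR to the GPX1 stretch: 8 bases (315 genes), 7 bases (1509), the 6-base core (1389) or no match (9882). The curves move to the left with the length of the match, with medians of -0.37, -0.19, -0.07 and 0.06.

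The matched genes held a large part of the big falls. Of the searched genes that fell over 2-fold, 222 of 432 (51.4%) had a 7- or 8-letter match, against 18 of 231 (7.79%) of those that rose over 2-fold and 1824 of 13095 (13.9%) of all searched genes other than GPX1. Among the 11271 genes with neither 7-letter sequence, 210 fell and 213 rose over 2-fold, and in all 2223 fell and 3236 rose. The excess of large falls over large rises was not seen in the unmatched genes. The 2 sequences were picked because they ranked lowest on these same values, so this contrast was partly set in advance. The shares and medians by match rest on the same choice. Matched genes had longer UTRs (median 2715 bases against 1084). By range of UTR length the matched and unmatched medians were -0.42 and 0.02 for 30 to 500 bases and -0.33 and 0.05 for 500 to 1500. They were -0.28 and 0.08 for 1500 to 3000 bases and -0.11 and 0.08 beyond that. These medians rest on the same choice of sequences, and the part of UTR length was not tested.

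A match in the coding sequence went with a smaller difference. Of the genes without a UTR match, the 2583 with one of the 7-letter sequences in the coding sequence had a median of -0.07 and 32.7% of them fell, against 0.08 and 15.9% for the 8688 with no coding match. Genes with 2 UTR places had a median of -0.31 (256 genes) and those with 1 had -0.20 (1533 genes), while the 35 genes with 3 or more had -0.18. In the RefSeq table of 2370 mature miRNAs, 0 had a seed (bases 2 to 8) complementary to either sequence. Shorter seeds were not searched, so this count covers full seed matches only. What part a match plays in the change of any gene was not tested.

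Gene groups of interest in these cells were read against the background of 25.7% rising, 22.8% falling and a median of 0.0257. Where unmatched members are given, the background is that of all unmatched genes: 28.7% rising, 19.7% falling and a median of 0.053. The match was picked on these same changes, so fewer falls among the unmatched members of a list were partly set in advance. Among 22 tested genes of glutathione peroxidases, selenoproteins and selenocysteine synthesis, 7 fell, GPX1 included, 3 rose and the median was 0.00. TXNRD1, the cytosolic thioredoxin reductase, fell by 1.28 ± 0.09, from 455 and 471 CPM to 160 and 156 in HS578T and from 638 and 652 to 315 and 320 in MDA-MB-231. SELT, a thioredoxin-like selenoprotein of the endoplasmic reticulum, fell by 0.69 ± 0.05, and GPX8, a peroxidase of the same compartment that lacks selenium, by 0.30 ± 0.04. Their siGpx1 libraries lay below the controls in both lines. GPX4, the peroxidase of membrane lipids, had a common change of -0.03 that did not pass. TXNRD1 and SELT are among the UTR-matched genes, and the 17 unmatched members had 2 rises, 3 falls and a median of 0.06.

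Of 30 genes of peroxide and glutathione defence, 8 rose and 3 fell, with a median of 0.08. SRXN1, sulfiredoxin, which repairs overoxidised peroxiredoxins, rose by 0.56 ± 0.07, from 102 and 104 CPM to 166 and 183 and from 140 and 136 to 174 and 183. PRDX1, the main cytosolic peroxiredoxin, rose by 0.26 ± 0.05, GCLC, the catalytic subunit of glutathione synthesis, by 0.24 ± 0.06, and MGST3, a microsomal glutathione transferase, fell by 0.42 ± 0.07. All of these were small beside the fall of GPX1.

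Targets of NRF2, the transcription factor that answers oxidants, moved both ways. Of 27, 11 rose and 4 fell, with a median of 0.14. PGD, an enzyme of the pentose phosphate pathway that makes NADPH, rose by 0.85 ± 0.06, from 79.8 and 81.0 CPM to 147 and 169 and from 80.8 and 84.9 to 136 and 138, and MAFG, a partner of NRF2, rose by 0.53 ± 0.05. SQSTM1, the autophagy receptor p62, fell by 1.68 ± 0.08, from 760 and 764 CPM to 201 and 202 and from 658 and 665 to 241 and 243. The largest falls of the list, SQSTM1 and TXNRD1, are both UTR-matched, and of its 22 unmatched genes 10 rose and 2 fell.

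Among 31 genes of the citric acid cycle and its feeders, 6 rose and 10 fell, with a median of 0.02. Besides MDH2, SUCLG2, a subunit of succinyl-CoA synthetase, fell by 0.95 ± 0.07 and GOT2, the mitochondrial aspartate transaminase of the malate shuttle, by 0.58 ± 0.05. The cytosolic malate dehydrogenase MDH1 had -0.08 and did not pass. Of 27 glycolysis genes, 7 rose and 9 fell. Their change differed between the lines for 15 of the 27, and the medians were 0.09 in HS578T and -0.08 in MDA-MB-231. PDK1, a kinase that shuts pyruvate dehydrogenase, rose by 0.92 ± 0.06, while its relative PDK3 fell by 0.74 ± 0.09, the lactate exporter SLC16A3 by 0.46 ± 0.04 and the hexokinase HK1 by 0.37 ± 0.05.

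Of 43 genes of DNA replication and the G1/S transition, 21 fell and 6 rose, with a median of -0.17. CCNE1, the cyclin that starts S phase, fell by 1.55 ± 0.10, from 10.7 and 11.4 CPM to 3.57 and 4.15 and from 18.4 and 21.6 to 6.13 and 7.35. SLBP, which binds histone mRNA, fell by 1.07 ± 0.05 and CDC45, a helicase factor, by 0.69 ± 0.05, whereas RPA1, which coats single-stranded DNA, rose by 1.32 ± 0.10. CCNE1 and SLBP are UTR-matched, and of the 38 unmatched genes 16 fell and 6 rose. In bulk RNA, fewer cells in a phase and less RNA per cell cannot be told apart.

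Of 40 mitotic genes, 15 fell and 4 rose, with a median of -0.105, but the change differed between the lines for 30 of the 40, and the medians were -0.25 in HS578T and 0.05 in MDA-MB-231. Over both lines it was -0.03 to -0.07 when any 1 HS578T library was left out and -0.16 without MDA-MB-231 siGpx1 replicate 2, and 1 member rose when any 1 MDA-MB-231 library was left out. TOP2A, a DNA topoisomerase of dividing cells, fell in both, from 881 and 867 CPM to 231 and 239 and from 1.08e+03 and 1.04e+03 to 416 and 409 (-1.62 ± 0.09). KIF2C, a microtubule depolymerase, fell by 0.72 ± 0.07 and CENPE, a kinetochore motor, by 0.56 ± 0.07, while CDK1, the mitotic kinase, rose by 0.38 ± 0.06. MKI67, the proliferation marker, fell by 0.52 in the common fit.

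Of 25 p53 targets, 7 fell and 5 rose, close to the background shares. The median was 0.00 and the members ranged from -1.23 to 0.74. The 4 with the smallest p were all falls. FAS, a death receptor, fell by 1.23 ± 0.14, DDB2, a DNA damage sensor, by 1.05 ± 0.06, CDKN1A, the CDK inhibitor p21, by 0.79 ± 0.05, and BAX, a pore-forming BCL2 relative, by 0.50 ± 0.05. For CDKN1A the HS578T libraries went from 25.7 and 25.2 CPM to 13.9 and 15.3 and the MDA-MB-231 libraries from 75.4 and 78.0 to 45.5 and 43.4. FAS and CDKN1A are UTR-matched, and of the 22 unmatched p53 targets 4 rose and 5 fell. Among 16 BCL2 family genes, 8 fell and 4 rose. The survival gene BCL2L2 fell by 0.91 ± 0.07 and BCL2L13 by 0.43 ± 0.06, and BMF, a BH3-only activator of cell death, rose by 0.72 ± 0.09. These counts were not steady: 5 members fell when any 1 MDA-MB-231 library was left out, and 2 rose without either HS578T control or without HS578T siGpx1 replicate 2.

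Cytokines, chemokines and other NF-κB targets had the lowest list median, -0.36. Of 30 tested, 16 fell and 3 rose. IL8, a neutrophil chemokine, fell by 1.39 ± 0.06, from 539 and 576 CPM to 233 and 204 in HS578T and from 72.9 and 78.4 to 28.1 and 27.3 in MDA-MB-231. CSF1, the macrophage growth factor, fell by 1.54 ± 0.16, from 634 and 641 CPM to 158 and 150 and from 709 and 714 to 338 and 350. The groups of both were apart in each line. CXCL1 and CSF3 had calls of -1.92 ± 0.09 and -2.10 ± 0.15 that come from MDA-MB-231, since HS578T held 0 to 0.0784 CPM of either, and with the lines weighted equally neither passed (adjusted p = 0.13 and 0.12). PTGS2, the inducible cyclooxygenase, rose by 1.40, and the NF-κB inhibitor genes NFKBIA (0.03) and TNFAIP3 (0.02) did not pass. The 25 unmatched members had 13 falls, 2 rises and a median of -0.27.

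Of 43 interferon-induced genes, 16 fell, 1 rose and 26 did not pass, with a median of -0.125. OAS3, an oligoadenylate synthetase that senses double-stranded RNA, fell by 1.21 ± 0.08, from 63.6 and 62.4 CPM to 23.1 and 24.7 in HS578T and from 62.1 and 61.7 to 31.8 and 28.4 in MDA-MB-231, with the groups apart in both lines. Its relative OASL fell by 1.10 ± 0.10, and IFIT1, an antiviral effector, fell by 0.70 ± 0.06. IFI27 was the member that rose, by 0.39. Without HS578T Control replicate 1 the list had 13 falls, 3 rises and a median of -0.07, 2 rose without HS578T siGpx1 replicate 1, and 4 rose with the lines weighted equally.

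Of 36 genes of sterol and fatty acid synthesis, 17 fell and 2 rose, with a median of -0.16. ACLY, which makes cytosolic acetyl-CoA, fell by 0.86 ± 0.05, from 537 and 540 CPM to 278 and 262 and from 409 in both controls to 246 and 249. FASN, fatty acid synthase, fell by 0.80 ± 0.07, FADS2, a desaturase, by 0.96 ± 0.08, and STARD4, a cholesterol carrier, by 1.22 ± 0.11.

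Of 32 genes of the ATF4 and unfolded protein responses, 14 fell and 5 rose, with a median of -0.10. HYOU1, a chaperone of the endoplasmic reticulum, fell by 0.78 ± 0.08, SLC7A5, a transporter of large neutral amino acids, by 0.74 ± 0.04, PPP1R15A, a phosphatase subunit that ends translational arrest, by 0.50 ± 0.05, and MANF, a secreted stress factor, by 0.33 ± 0.04. Of 29 hypoxia-inducible genes, 12 rose and 6 fell, with a median of 0.13. Their change differed between the lines for 16 of 29, and the medians were 0.43 in HS578T and -0.02 in MDA-MB-231. NDRG1, a stress-induced gene, fell by 0.82 ± 0.06 and CA12, a carbonic anhydrase, by 0.91 ± 0.07. LOX, which crosslinks collagen, fell by 0.60 ± 0.05, in contrast to PDK1 above. NDRG1 and CA12 are UTR-matched, and the 25 unmatched members had 11 rises, 3 falls and a median of 0.19.

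Among 40 genes of focal adhesions and integrins, 13 rose and 13 fell, with a median of 0.05. CDC42, the GTPase of filopodia and polarity, fell by 1.31 ± 0.04, from 293 and 289 CPM to 117 and 111 and from 326 and 318 to 132 and 136. PXN, the scaffold paxillin, rose by 1.36 ± 0.05, from 48.1 and 48.4 CPM to 139 and 134 and from 180 in both controls to 429 and 420. ACTN1, which crosslinks actin, fell by 0.78 ± 0.04 and CRKL, an adaptor, by 0.85 ± 0.06. PTK2, the focal adhesion kinase, and ITGB1, the shared integrin beta chain, had -0.07 and 0.07 and did not pass. Of the 33 unmatched members 13 rose and 6 fell, so 7 of the 13 falls of the list were in matched genes, CDC42 among them.

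Matrix and matrix protease genes had 21 rises and 11 falls of 49, with a median of 0.14. TIMP2, an inhibitor of matrix metalloproteases, fell by 1.249 ± 0.074, from 605 and 581 CPM to 233 and 205 and from 672 and 696 to 328 and 326, and LAMC1, a laminin gamma chain, fell by 0.69 ± 0.04. DCN, decorin, rose by 1.67 ± 0.07 but had 0 counts in all MDA-MB-231 libraries, so its change is that of HS578T. MMP14 and MMP2 rose by 0.22 and 0.17. With the lines weighted equally 17 members rose, 12 fell and the median was 0.0847, and without MDA-MB-231 siGpx1 replicate 2 the median was 0.0954. Without HS578T siGpx1 replicate 1, 14 rose.

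Of 20 factors of the epithelial-mesenchymal transition and cadherins, 7 rose and 6 fell, with a median of -0.03. CDH11, a mesenchymal cadherin, fell by 1.37 ± 0.05, from 399 and 393 CPM to 168 and 147 and from 187 and 190 to 72.3 and 70.2. VIM, the mesenchymal intermediate filament, rose by 0.30 ± 0.03. CDH2, N-cadherin, rose by 0.63 ± 0.08 on HS578T levels of 504 and 525 against 818 and 752 CPM, with 0.713 to 2 CPM in MDA-MB-231. CDH4 fell by 1.42 ± 0.13 on MDA-MB-231 values alone, with 0 to 0.157 CPM in HS578T, and did not pass with the lines weighted equally (adjusted p = 0.47).

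Markers of other mammary cell types moved as well. Of 9 tested luminal markers, 6 rose and 2 fell, with a median of 0.58. The medians were 0.10 in HS578T and 0.65 in MDA-MB-231. Their summed level went from 229 and 232 CPM to 615 and 678 in HS578T, most of it KRT18. In MDA-MB-231 it went from 1180 and 1190 to 1780 and 1820. KRT18, a simple epithelial keratin, rose by 1.13 ± 0.16, from 190 and 191 CPM to 548 and 618 and from 322 and 318 to 486 and 516. Its partner KRT8 rose by 0.61 ± 0.07. GATA3 fell in both lines, from 142 and 118 counts to 78 and 77 in HS578T and from 140 and 148 to 100 and 110 in MDA-MB-231. CLDN4 changed by -0.43 ± 0.06, on 103 and 111 CPM against 79.9 and 78.8 in MDA-MB-231 and under 1 CPM in HS578T, and was not called with the lines weighted equally (adjusted p = 0.10). That weighting lowered the list median to 0.19. The mesenchymal list had 5 rises and 4 falls of 11, with AXL, a receptor tyrosine kinase, at -0.95, FN1 at 0.39 ± 0.04 and THY1, a fibroblast surface marker with 0 counts in MDA-MB-231, at -1.26 ± 0.06. Of 4 tested basal markers, KRT17 (0.73 ± 0.11) and KRT14 (0.41 ± 0.10) were called, on HS578T levels only, while KRT15 (0.23) and TP63 (0.07) did not pass. With the lines weighted equally neither call was kept: KRT17 had 0.63 (adjusted p = 0.091) and KRT14 turned to -0.18 (adjusted p = 0.85).

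The leukocyte and endothelial lists had 2 tested members each, of which CD14 rose by 0.69 ± 0.14 and KDR by 1.08 ± 0.22, at levels of at most 7.55 and 4.25 CPM, and CD68 (-0.22) and PECAM1 (0.28) did not pass. ERBB2 (0.12) and PGR (0.42) did not pass. The part of these markers in the other lists was not tested.

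Of 25 U2 and SF3 spliceosome genes, 9 rose and 4 fell, with a median of 0.03. While PHF5A fell, its partners in the SF3b complex SF3B5 and SF3B3 rose by 1.30 ± 0.07 and 0.86 ± 0.06, from 19.0 and 18.3 CPM to 46.2 and 51.6 and from 18.9 and 21.3 to 48.9 and 44.4 for SF3B5. CHERP, which is associated with the U2 particle, rose by 1.08 ± 0.06. PHF5A and SF3B3 are the UTR-matched genes of this list, and SF3B3 rose although its UTR carries the whole joined sequence GGGCATCA. Of 19 genes of small RNA silencing, 6 rose and 6 fell. DCP2, the decapping enzyme, rose by 1.52 ± 0.06, from 49.3 and 49.4 CPM to 130 and 129 and from 44.7 and 41.6 to 132 and 137, EDC3, a decapping enhancer, fell by 1.32 ± 0.08, DICER1, the RNase that cuts small RNA precursors, rose by 0.51 ± 0.04, and CNOT6, a deadenylase, fell by 0.57 ± 0.05.

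Cytosolic ribosomal protein genes, of which 78 were tested, had 57 members that did not pass, 19 falls and 2 rises, with a median of -0.02. RPS29 fell from 69.1 and 75.6 CPM to 14 and 13.3 and from 105 and 103 to 24.0 and 23.5 (-2.25 ± 0.07). RPL8 fell from 1.42e+03 and 1.47e+03 CPM to 399 and 403 and from 608 and 637 to 270 and 262 (-1.54 ± 0.10). RPL14 and RPL3 fell by 0.65 ± 0.06 and 0.57 ± 0.07. The remaining members lay between -0.59 and 0.15, and as these genes have many processed copies in the genome, the sharing of reads makes single values uncertain.

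**Figure D5:**
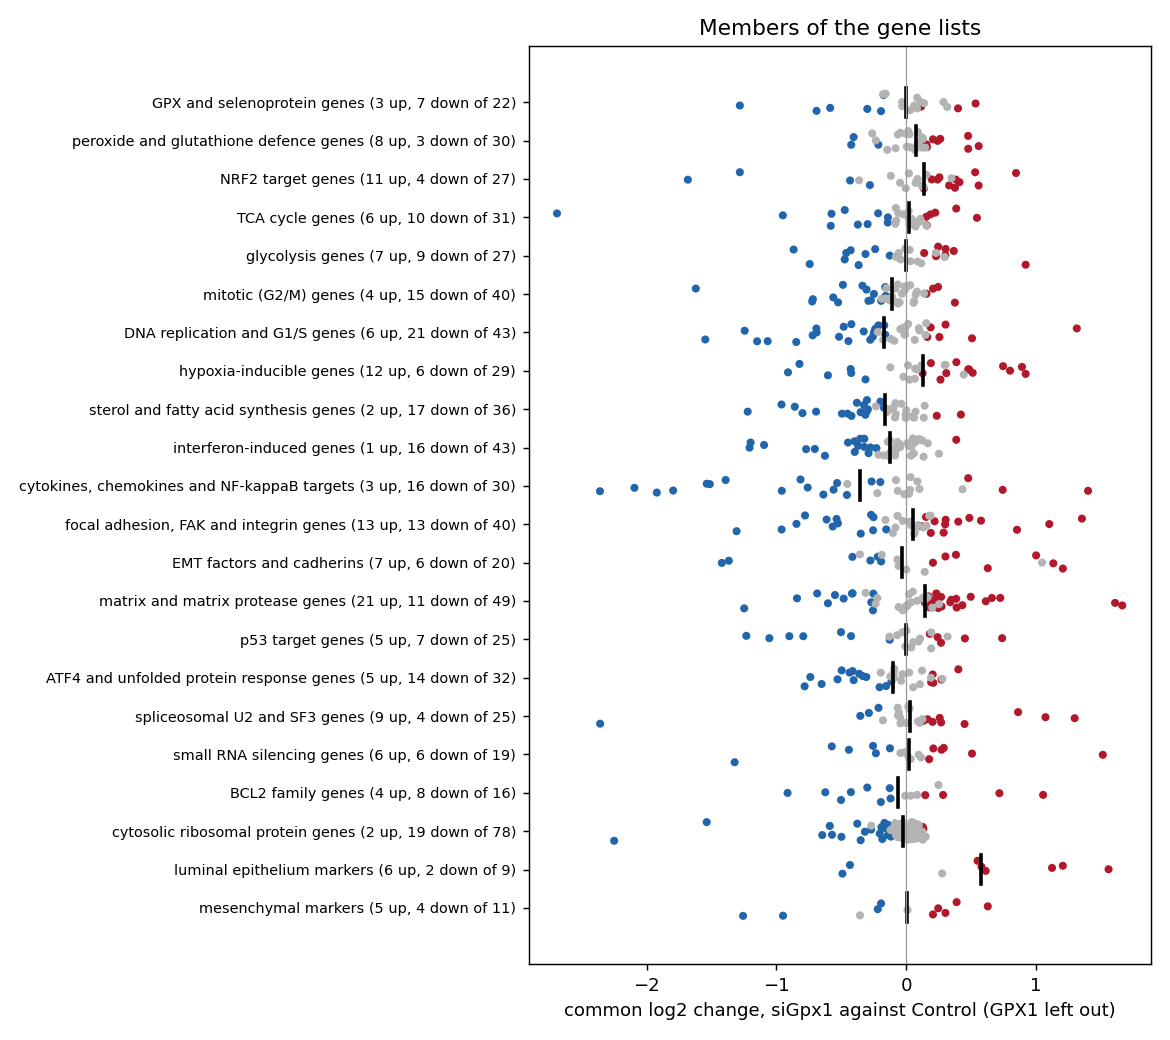
Common log2 change (horizontal axis) of each tested member of the gene lists with at least 5 tested members, red where it rose, blue where it fell and grey where it did not pass, with a black bar at the list median; GPX1 is counted in the label of its list and left off the plot. Medians lie between -0.36 for the cytokines, chemokines and NF-κB targets and 0.58 for the luminal markers.

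A gene can be called in the common fit on one line alone, because the fit weighs each line by its counts. Of the 6912 called genes, 562 had under 1 CPM in every library of a line, among them 118 of the 250 rises and 111 of the 455 falls over 2-fold. EPHB1, an ephrin receptor, went from 136 and 133 CPM to 38.3 and 36.0 in HS578T and had 0 counts in all 4 MDA-MB-231 libraries, each of which allows up to 3 counts, yet its common change was -1.85 ± 0.08 (adjusted p = 7.29e-07). DMBT1, a secreted scavenger protein, and CNIH3, an auxiliary subunit of glutamate receptors, fell in MDA-MB-231 and were near 0 in HS578T (-2.33 ± 0.15 and -1.89 ± 0.15). With the lines weighted equally, EPHB1, DMBT1 and CNIH3 had -0.93, -1.13 and -0.91 and did not pass (adjusted p = 1, 0.39 and 0.31).

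SCG2, which encodes a secretory granule protein, rose from 7.97 and 5.72 CPM to 62.2 and 56.9 in HS578T and stood at 3.10 and 3.37 against 3.24 and 4.5 in MDA-MB-231, where the groups overlapped. Its common change was 2.30 ± 0.41, and 1.68 with the lines weighted equally. KCNE4, a potassium channel subunit, had 2.19 ± 0.16 in common and 1.01 with equal weights (adjusted p = 0.089). VCAM1, an adhesion molecule for leukocytes, had -1.80 ± 0.35, with -2.18 in HS578T and 0.04 in MDA-MB-231. C4B and C4B_2, genes of complement, are copies with identical values in the files (1.80 ± 0.35), so they count as 1 uncertain gene. DESeq2 did not call C4B (adjusted p = 0.093) or VCAM1 (adjusted p = 0.11).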

How the data were processed

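RNA-seq was measured in 8 libraries, 2 per group. Per the submitters' processing notes, FastQC, RSEM 1.2.12 and build hg19 were used. No source used here names the aligner, trimming or strand setting. The expected counts were deposited by the authors and are, per the file headers, RSEM's estimates per gene, in which reads that fit several genes are shared out. The TPM values, also deposited by the authors, scale them by effective length. Whole numbers made up 94.7 to 94.9% of the detected values, and the rest were rounded.

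Groups came from the titles and lines from the cell line tag. Genes kept by filterByExpr with the 4 groups (14249) were scaled by TMM and fitted in edgeR 4.0.16 with line and arm as additive terms (5 residual degrees of freedom). A gene was called where the quasi-likelihood p, adjusted by Benjamini and Hochberg's method, was under 0.05. Any difference between the lines adds to the residual spread of this fit, whose biological coefficient of variation was 0.0654 against 0.0342 with a line-by-arm term (4 degrees of freedom), which tested the line difference. The additive fit weighs the lines by their counts. The SE of a change is its size divided by the root of the F statistic. On simulated data with seeded changes most of these were recovered, but the share of false calls lay above the nominal level. The number of libraries, the counts and the sharing of reads between similar genes limit the precision of a value.

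The comparison, the 26 gene lists and the naming rule were chosen with earlier results of these data known, so lists carry counts and medians and no test. Named genes were GPX1; the 14 largest rises and falls with a mean of at least 5 CPM and siGpx1 libraries beyond both controls, on 1 side, in each line; the 5 per direction with the smallest p; the 4 per direction whose change in a line was under 0.3 in size or opposite; and up to 4 per list by p. Uncharacterised loci and small RNAs were passed over, and a few genes and a sequence the rule gives are not reported here. GPX4, MDH1, MKI67, PTGS2, NFKBIA, TNFAIP3, IFI27, PTK2, ITGB1, MMP14, MMP2 and AXL were added after their values were seen, as examples, and so were counts of single cell type markers. The 3′ UTRs of GENCODE 29 (GRCh38) were joined by accession (12808 genes) or symbol (288), 91.9% of those tested, for UTRs of at least 30 bases; GPX1 was left out of the match classes.

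Alternatives were DESeq2 size factors, DESeq2 1.42.0, limma-voom and limma 3.58.1 on log2(TPM + 1), no filter or 5 CPM in 2 libraries, a mean per group with the lines averaged equally, the replicate number as a block, a test against a fold of 1.5, and leaving out single libraries. R 4.3.3 and Python 3.11.15 (pandas 2.3.3, numpy 2.4.6, matplotlib 3.10.9) were used.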

Additional observations from a re-analysis of the deposited data

Results flagged for a closer look

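The common effect averages the lines, and for some of the named genes the change itself differed between them at an adjusted p under 0.05 by the line-by-arm term of edgeR's quasi-likelihood test. The value after each gene is the log2 change in MDA-MB-231 minus that in HS578T. SCG2 (-2.86) rose in HS578T and its change in MDA-MB-231 did not pass. Among genes with a fitted rise in both lines, the rise was smaller in MDA-MB-231 for CEBPD (-2.42), RBM47 (-1.94), CCDC71L (-1.86), SLC12A8 (-1.12), MUC1 (-1), KRT18 (-0.969), ADAMTS14 (-0.963), SPOPL (-0.883), RPA1 (-0.602), SRXN1 (-0.392), SF3B3 (-0.291), PXN (-0.267) and PGD (-0.25). It was larger there for DCP2 (0.247), KRT8 (0.372) and SMN2 (1.01, a near-identical copy of SMN1).

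Among genes with a fitted fall in both lines, the fall was larger in MDA-MB-231 for IL11 (-2.08), TMEM64 (-0.72), DENND6A (-0.515), B3GNT5 (-0.44), EDC3 (-0.385), SUCLG2 (-0.313), NDRG1 (-0.246), HK1 (-0.243) and CRKL (-0.236). It was smaller there for CSF1 (1), FAS (0.823), RPL8 (0.618), TOP2A (0.534), TXNRD1 (0.53), CLCN4 (0.528), HYOU1 (0.504), PDK3 (0.478), SQSTM1 (0.466), KIF2C (0.417), RPL3 (0.393), FASN (0.386), TIMP2 (0.373), OAS3 (0.358), CENPE (0.35), RPL14 (0.348), MDH2 (0.34), MGST3 (0.288), ACLY (0.271) and BCL2L13 (0.25). The fitted changes had opposite signs for C4B and its copy C4B_2 (-2.27 each), PECAM1 (-1.40), KRT15 (-0.857), CD68 (0.486) and VCAM1 (2.22).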

How the results depend on the processing

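The replicate numbers were not taken to pair the samples, since not every correlation between the deviations of same-numbered libraries was above 0.1: they were -0.0679 within HS578T, 0.0578 within MDA-MB-231, and -0.0124 to 0.131 across the lines. With the replicate number within a line as a block, 3096 genes rose and 2818 fell. Leaving out each library in turn gave 3113 to 3371 rises, 2879 to 3042 falls and 1519 to 2737 genes whose change differed between the lines. The lowest of these came without an MDA-MB-231 siGpx1 library (1519 without replicate 1 and 1579 without replicate 2, against 2428 with all). DESeq2 called 3435 rises and 2781 falls, and limma on log2(TPM + 1) 3116 and 3244, where 49% of calls were rises, against 53% in the reported fit. Of the 6912 calls, between 85.0 and 98.7% were shared with each alternative other than the test against a fold of 1.5, which left 262 rises and 582 falls (12.2% shared). Among genes with a searched UTR and neither 7-base match, 3236 rose and 2223 fell, and among genes with at least 1 CPM in some library of each line 3367 and 2983. Of the 129 genes the naming rule gives, KRT14 changed sign with the lines weighted equally (-0.18, adjusted p = 0.85), and CD68 (-0.24) and ERBB2 (0.12) passed there. In 56 further combinations of a named gene and a setting the call was lost. The median of the cytokine, chemokine and NF-κB list ranged from -0.24 to -0.50. Other lists moved by over 1.5 times: without 1 library the median of peroxide and glutathione defence fell to 0.0485 (HS578T siGpx1 replicate 2), of NRF2 targets to 0.0876 (MDA-MB-231 siGpx1 replicate 2) and of focal adhesion genes to 0.0266 (MDA-MB-231 Control replicate 1), and that of hypoxia genes rose to 0.209 (MDA-MB-231 Control replicate 2). NRF2 targets had 2 falls without HS578T Control replicate 2 or siGpx1 replicate 1, and p53 targets 3 rises without HS578T Control replicate 1. With the lines weighted equally, 15 peroxide, 8 ATF4 and 11 ribosomal genes rose. On log2(TPM + 1) 3 luminal markers rose. The medians of the selenoprotein, citric acid cycle, glycolysis, p53, small RNA, EMT and mesenchymal lists changed sign between settings. With 2 libraries per group the spread between cultures is not known, and genes under 1 CPM in a line say little about that line.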
